A study of Mus musculus with 12 samples.

Results

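A set of 10 genes for secreted signals of CD8+ T cells was examined in T_prog_ cells with and without UTX. They were *Ifng*, *Tnf*, *Lta*, *Ltb*, *Il2*, *Xcl1*, *Ccl3*, *Ccl4*, *Ccl5* and *Il16*, 10 of the 25860 genes listed, chosen by symbol as cytokines and chemokines that CD8+ cells make. Accessible chromatin was taken from every listed ATAC-seq peak that carried 1 of these names. The cells were sorted from pancreatic lymph nodes of female nonobese diabetic (NOD) mice. All mice carried the transgenic NY8.3 T cell receptor, which recognizes the β cell antigen IGRP, so that most T cells share 1 specificity. In *NOD-TCR 8.3 UTX TCD* mice, *UTX fl/fl* was deleted by Cre under the T cell promoter *Lck*, and *NOD-TCR 8.3 WT* mice were UTX-sufficient controls without that deletion. The sample labels give the gate as Ly108+CXCR6- and the study's methods as Ly108+CD39-, and the age of the sequenced mice is not given in the sources used here. RNA-seq and ATAC-seq each had 3 libraries per genotype.

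Cytokines are secreted proteins that carry signals between immune cells, and chemokines are the subgroup that directs cell migration. In CD8+ T cells, IFN-γ and TNF act on target tissue and on other leukocytes, IL-2 drives T cell growth, lymphotoxins shape lymphoid tissue, and XCL1, CCL3, CCL4 and CCL5 attract dendritic cells, macrophages and T cells. Many of these genes are transcribed strongly only after the T cell receptor is engaged, and their mRNAs are often short-lived.

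Reads counted on genes numbered 146456724, 144503203 and 193568919 for the WT libraries and 61512402, 175462433 and 187275082 for the UTX TCD libraries. UTX TCD replicate 1 was the shallowest, and 3 reads there equal 6.75 normalized counts, against 2.21 to 2.97 in the other libraries. A normalized count is the read count divided by the size factor of its library. Genes with a mean of at least 10 normalized counts entered a limma fit of log2(normalized count + 1), and a call needed a Benjamini-Hochberg adjusted p under 0.05 over all 14459 genes tested and an absolute log2 fold change over 0.5. Fold changes are UTX TCD over WT, and this scale understates them for low counts. For 1 gene alone 3 libraries against 3 allow no 2-sided exact permutation p below 0.1. *Kdm6a*, which encodes UTX, had 28365, 28949 and 29172 normalized counts in the WT libraries and 24158, 24792 and 24579 in the UTX TCD libraries, a log2 fold change of -0.23 (SE 0.04, limma adjusted p = 0.00114). All 3 UTX TCD libraries were below all 3 WT libraries, but the change was small, and counts over the whole gene do not show whether the floxed part was lost. The Y-linked homolog *Uty* had no normalized count above 2.25 in any library.

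The sorted cells carried the transcripts of CD8+ T cells. The 7 CD8+ T cell markers summed to 1013130, 959631 and 999730 in WT and 977434, 961784 and 885714 in UTX TCD libraries in normalized counts, led by *Cd8a*, and 0 were called with limma because none passed the fold limit. The limma p was under 0.05 for 6 of them, both unadjusted and adjusted, and 5 of these 6 were lower in UTX TCD cells. With edgeR and DESeq2 0 were called as well. Among the sort markers, *Slamf6*, which encodes Ly108, had a log2 fold change of 0.29 (SE 0.12, limma adjusted p = 0.089), which was 0.43 (adjusted p = 0.00921) without WT replicate 2 and 0.16 (adjusted p = 0.256) without WT replicate 3, within 0.00921 to 0.256 over its alternatives. The progenitor transcription factor gene *Tcf7* had -0.07 (SE 0.05, limma adjusted p = 0.287). The activation marker *Cd44* had 0.17 (SE 0.05, limma adjusted p = 0.0322), below the fold limit. *Cxcr6*, a receptor used in the labelled gate, fell by 1.07 on the log2 scale, with a mean of 12033 ± 2146 in WT against 5658 ± 355 in UTX TCD cells (SD, n = 3 each) (limma adjusted p = 0.000131). *Entpd1*, which encodes CD39, was low in every library, between 4.42 and 29.6 normalized counts.

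The members divided into 2 called higher, *Lta* and *Ccl3*, and 2 called lower, *Xcl1* and *Ccl5*, in UTX TCD T_prog_ cells. *Ccl3* passed the filter only through its values in UTX TCD cells, so this count is a description, and with a filter at a mean of 50 only *Lta* was called higher. Of the 10 members 9 passed the filter, and *Il2* did not. Over all genes tested 17.6% were called, 10.5% higher and 7.05% lower. Among the 9 tested members 6 had an adjusted p under 0.05 at any fold, against 40.7% of all genes tested, and in 5 the genotypes did not overlap, against 51.9%. *Ccl3* is in both counts. The median log2 fold change of the tested members was -0.18, beside -0.0002 over all genes tested. In sorted bulk cells, fewer cells making a transcript and less transcript per cell cannot be told apart.

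**Figure D1:**
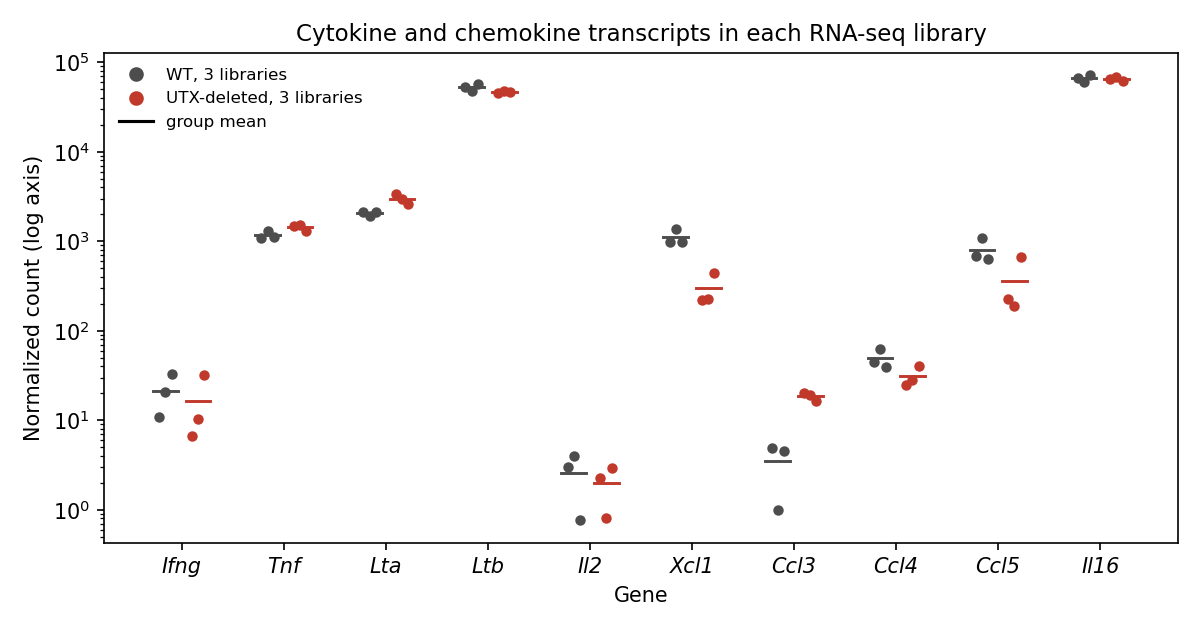
Normalized counts (log axis) of the 10 cytokine and chemokine genes in each RNA-seq library, with WT in gray, UTX-deleted in red, 3 libraries per genotype, and the group mean as a line. *Xcl1* lay between 978 and 1358 in WT and between 220.4 and 447 in UTX-deleted cells, whereas *Il16* and *Ltb* were high in all 6 libraries.

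Levels between genes were compared per kilobase of annotated exon. In WT cells *Ltb* was highest at 45181, 40548 and 48501 normalized counts per kb, followed by *Il16* at 12449, 11374 and 13411. *Xcl1* came next at 1896, 2598 and 1869 per kb, and then *Ccl5* at 1288, 2047 and 1186 and *Lta* at 1533, 1384 and 1523. The ranges of *Ccl5* and *Lta* overlapped in WT, as did those of *Xcl1* and *Ccl5*, so these neighbors in the order did not separate beyond their spread. *Tnf* followed at a mean of 715 ± 74.6 per kb (SD, n = 3), *Ccl4* at 74.5 ± 18.8 (SD, n = 3) and *Ifng* at 17.8 ± 9.08 (SD, n = 3). *Ccl3* and *Il2* were lowest, at 4.58 ± 2.86 and 2.24 ± 1.43 per kb (SD, n = 3), and their WT ranges overlapped. In UTX TCD cells *Ltb* and *Il16* kept the top of the order at means of 39354 and 12198 per kb. *Lta* and *Tnf*, at 2135 and 879.6, then stood above *Ccl5* and *Xcl1*, at 682 and 571, although UTX TCD replicate 3 of *Xcl1* lay within the range of *Tnf* and that of *Ccl5* above it.

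*Xcl1* encodes the chemokine that attracts XCR1-bearing cross-presenting dendritic cells. It had 992, 1358 and 978 normalized counts in the WT libraries and 220.4, 227 and 447 in the UTX TCD libraries. Every UTX TCD library was below every WT library, and UTX TCD replicate 3 was the highest of its group. The mean of *Xcl1* was 1109 ± 216 in WT against 298 ± 129 in UTX TCD cells (SD, n = 3 each), and its log2 fold change -1.95 (SE 0.26, limma adjusted p = 0.000422). The call was made under all 17 alternative settings, with log2 fold changes between -2.29 and -1.78. Without WT replicate 2, the highest WT library, it was -1.80 (adjusted p = 0.00267), and without UTX TCD replicate 3 it was -2.29 (adjusted p = 4.37e-05), within 2.41e-06 to 0.00267 over its alternatives.

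*Ccl5* encodes RANTES, a chemokine that recruits T cells and macrophages. It had 685, 1089 and 631 normalized counts in the WT libraries and 227, 189.8 and 672 in the UTX TCD libraries. UTX TCD replicates 1 and 2 were below all WT libraries, whereas UTX TCD replicate 3 lay within the WT range. The mean was 802 ± 250.3 in WT against 363 ± 268 in UTX TCD cells (SD, n = 3 each), and *Ccl5* was called lower at -1.34 (SE 0.42, limma adjusted p = 0.0325) on the log2 scale. This call was lost with edgeR, at -1.11 (edgeR adjusted p = 0.0731), and with DESeq2, at -1.14 (DESeq2 adjusted p = 0.13), within a range of 0.000658 to 0.13 over its 17 alternatives. It was also lost without WT replicate 1, at -1.43 (adjusted p = 0.0579), without WT replicate 2, at -1.10 (adjusted p = 0.112), without UTX TCD replicate 1, at -1.12 (adjusted p = 0.083), and without UTX TCD replicate 2, at -0.99 (adjusted p = 0.105). Without UTX TCD replicate 3 it was -1.90 (adjusted p = 0.000658).

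*Ccl3* and *Ccl4* encode the related chemokines MIP-1α and MIP-1β, which attract macrophages and T cells, from neighboring genes on chromosome 11. *Ccl3* had 4.95, 0.987 and 4.58 normalized counts in the WT libraries and 20.2, 19.2 and 16.2 in the UTX TCD libraries, and all 3 UTX TCD libraries were higher. These values rest on 12 reads in WT and 55 reads in UTX TCD libraries, a pooled ratio of 5.01 with a 95% interval of 2.65 to 10.3 that covers counting error only. *Ccl3* passed the filter only through its values in UTX TCD cells, so its call is a description. *Ccl3* was called higher at 2.27 (SE 0.53, limma adjusted p = 0.00811) on the log2 scale, and at 1.09 with a pseudocount of 10. With no filter on the mean its adjusted p was 0.00913, within 0.0059 to 0.0326 over its alternatives, and with a filter at a mean of 50 it was not tested. *Ccl4* had 44.6, 63.2 and 39.7 normalized counts in the WT libraries and 24.7, 28.0 and 40.5 in the UTX TCD libraries, and UTX TCD replicate 3 overlapped WT. Its log2 fold change of -0.65 (SE 0.30, limma adjusted p = 0.12) did not pass the test, and its 95% interval ran from -1.33 to 0.04. The annotation and strand setting of the counting are not stated, and RefSeq models of these neighbors overlap, so their reads may be divided uncertainly.

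*Lta*, *Tnf* and *Ltb* lie together on chromosome 17 and encode lymphotoxin-α, TNF and lymphotoxin-β, the last of which anchors lymphotoxin-α at the cell surface. *Lta* had 2119.9, 1913 and 2106 normalized counts in the WT libraries and 3334, 2951 and 2574 in the UTX TCD libraries. All UTX TCD libraries were above all WT libraries, and its mean was 2047 ± 116 in WT against 2953 ± 379.7 in UTX TCD cells (SD, n = 3 each). *Lta* rose by 0.52 (SE 0.09, limma adjusted p = 0.00228) on the log2 scale. That value lay just over the fold limit of 0.5, and the call was lost without WT replicate 2, at 0.47 (adjusted p = 0.00975), without UTX TCD replicate 1, at 0.43 (adjusted p = 0.00498), and at a fold limit of 1.5. Over its 17 alternatives the adjusted p of *Lta* ran from 1.07e-06 to 0.0103.

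*Tnf* had 1082, 1311 and 1123 normalized counts in the WT libraries and 1498, 1509 and 1317 in the UTX TCD libraries, again without overlap between genotypes. Its log2 fold change of 0.30 (SE 0.10, limma adjusted p = 0.0338) was under the fold limit, and the adjusted p was at or over 0.05 in 4 of 17 alternatives. *Ltb*, in contrast, had 53223, 47765 and 57134 normalized counts in the WT libraries and 44925, 47527 and 46624 in the UTX TCD libraries. All UTX TCD values of *Ltb* were lower than the WT values, but WT replicate 2 and UTX TCD replicate 2 differed by less than the spread within WT, and the log2 fold change was -0.18 (SE 0.06, limma adjusted p = 0.0486). Its adjusted p was at or over 0.05 in 8 of 17 alternatives. Thus 3 neighboring genes had values of 2 directions, and *Lta* alone passed both limits.

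*Ifng* encodes IFN-γ, the main macrophage-activating cytokine of CD8+ cells, and its transcripts were few. It had 10.9, 20.7 and 32.8 normalized counts in the WT libraries and 6.75, 10.4 and 31.7 in the UTX TCD libraries. The genotypes overlapped, and the values rested on 75 reads in WT and 59 reads in UTX TCD cells. *Ifng* had a log2 fold change of -0.53 (SE 0.60, limma adjusted p = 0.513) with a 95% interval of -1.88 to 0.82, which included 0. Libraries of 1 genotype differed widely, with 13 reads in UTX TCD replicate 2 and 43 reads in UTX TCD replicate 3. The log2 fold change ranged from -1.13 without UTX TCD replicate 3 to -0.09 without UTX TCD replicate 1. *Il2*, the T cell growth factor gene, had 2.97, 3.95 and 0.763 normalized counts in the WT libraries and 2.25, 0.801 and 2.95 in the UTX TCD libraries. That is 8 reads in WT and 6 reads in UTX TCD libraries, a pooled ratio of 0.82 with a 95% interval of 0.234 to 2.69. *Il16*, the precursor of a CD4-binding chemoattractant that is made constitutively, had 66376, 60648 and 71507 normalized counts in the WT libraries and 64666, 68696 and 61764 in the UTX TCD libraries. Its genotypes overlapped, with a log2 fold change of -0.02 (SE 0.07, limma adjusted p = 0.808) that was 0.04 when libraries were scaled to the same sum.

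Values of UTX TCD replicate 3 and WT replicate 2 stood apart for several chemokines, and marker genes of other cells are given beside them. The 6 B cell markers summed to 2964, 2447 and 2810.3 in WT and 1228, 1098 and 1076 in UTX TCD libraries, led by *Cd79b*, which fell, whereas *Ms4a1* rose. *Ms4a1* and *Blk* had 73.0 and 75.2 normalized counts in UTX TCD replicate 3, their highest value of any library. The 4 CD4+ T cell and Treg markers summed to 518, 413 and 490.4 in WT and 391, 382 and 369 in UTX TCD libraries, led by *Foxp3*, with 2 called lower, *Cd4* and *Zbtb7b*. The 5 NK and innate-like markers summed to 94172, 83157 and 91354 in WT and 77246, 74068 and 73690.1 in UTX TCD libraries. Nearly all of it came from *Trdc* and *Nkg7*, whereas the NK cell receptor gene *Ncr1* was at or under 6.93. The study lists *Nkg7* among the genes of its CD8+ T_med_-like cells, and *Trdc* had a WT mean of 60830, beside 68519 for *Cd3d*. This sum is therefore no measure of NK or innate-like cells. The NK marker *Klrb1c* had 28.7, 55.3 and 16.8 normalized counts in the WT libraries and 13.5, 5.61 and 25.8 in the UTX TCD libraries. It was highest in WT replicate 2 and, among UTX TCD, in replicate 3. Its log2 fold change of -1.18 (SE 0.59, limma adjusted p = 0.14) did not pass the test. *Trdc* and *Nkg7*, in contrast, had their lowest WT values in replicate 2, at 57643 and 25448. Among UTX TCD libraries, replicate 3 was lowest for *Trdc*, at 51937.5, and highest for *Nkg7*, at 21719. *Zbtb16* was highest in WT replicate 2, at 10.9, and lowest among UTX TCD in replicate 3, at 5.16. The 8 myeloid markers summed to 816, 845 and 657 in WT and 1158, 898 and 1186 in UTX TCD libraries, led by *Cd68*, with *S100a8* at 0 in every library. Of these markers 4 were tested, with 1 called higher, *Mpeg1*, and 1 called lower, *Csf1r*. *Csf1r* passed the filter only through its WT values, at a mean of 24.2 against 6.07 in UTX TCD cells, so its call is a description. The 6 dendritic cell markers summed to 248, 214 and 201 in WT and 286, 280.3 and 287 in UTX TCD libraries, led by *Xcr1*, with 1 called higher, *H2-Ab1*. The 5 stromal and endothelial markers summed to 31789, 29799.8 and 31932 in WT and 37718, 37860 and 33667 in UTX TCD libraries, nearly all from *Pecam1*, with *Ccl21a* at 0 in every library. The endothelial marker *Cdh5* went the other way, with 24.8, 21.7 and 9.91 normalized counts in WT and 0 in each UTX TCD library. The stromal and endothelial sum thus follows *Pecam1* and is no measure of these cells. The part of such cells in the chemokine values was not tested.

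In ATAC-seq, a transposase cuts accessible DNA and its cut sites are sequenced. The deposited set lists 23932 peaks that passed the authors' own comparison at a false discovery rate under 0.05, so every peak in it was chosen for a difference and the values below are a description with no test. They are the authors' means per genotype on the log2 scale, with no value per library. Of all listed peaks, 68.8% were higher and 31.2% lower in UTX TCD cells. Of 18 peaks assigned to the members, 7 were higher and 11 lower, and their median difference was -0.52, beside 0.49 over all listed peaks. *Ifng* held 9 of the 18, of which 1 was higher and 8 lower. Thus 8 of the 11 lower member peaks were at this 1 gene, and the pooled median mostly describes *Ifng*. Of the other members, *Lta* had 1 higher and 1 lower peak and *Xcl1* 1 higher and 2 lower. *Il2* had 2 higher peaks, and *Ccl3* and *Il16* had 1 higher peak each. *Tnf*, *Ltb*, *Ccl4* and *Ccl5* had no listed peak under their names.

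At *Ifng* (chr10:118441046-118445892, mm10, plus strand), the promoter was more accessible and the 8 other listed peaks were less accessible in UTX TCD cells. The promoter peak at chr10:118440705-118441105 had an authors' mean of 8.08 in WT and 8.63 in UTX TCD cells, a difference of 0.55. Of all 2621 listed promoter peaks 85.3% were higher, so this direction was the common one. In intron 1, the peak at chr10:118441899-118442299 went from 6.66 to 5.85. The largest difference, -1.17, was at the intergenic peak chr10:118404442-118404842, at -36404 bases from the start, where the mean was 6.48 in WT and 5.31 in UTX TCD cells. A second upstream peak, at chr10:118412814-118413214, differed by -1.13. After the gene, the intergenic peak at chr10:118458750-118459150 differed by -1.13, and that at chr10:118477295-118477695 went from 8.08 to 7.07. The remaining peaks, at chr10:118461303-118461703, chr10:118469041-118469441 and chr10:118486727-118487127, differed by -0.70, -0.55 and -0.66. All 7 intergenic peaks of *Ifng* were lower, whereas 65.2% of the listed intergenic peaks were higher. Of the 10611 genes named by a listed peak, 110 had at least 8 lower peaks, *Ifng* included. The transcript itself did not pass the test.

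**Figure D2:**
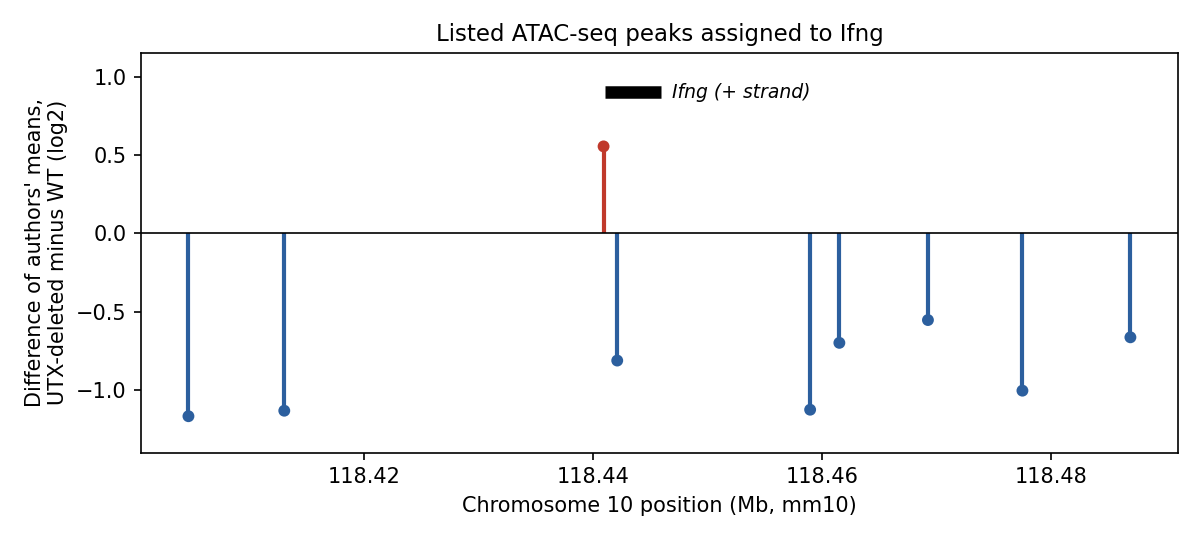
Listed ATAC-seq peaks assigned to *Ifng* by position on chromosome 10 (Mb, mm10), with the difference of the authors' group means (log2, UTX-deleted minus WT) as the height of each line and the gene as a black bar. The promoter peak is the single line above 0, at 0.55, and the 8 others lie between -1.17 and -0.55.

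*Xcl1* (chr1:164931644-164935527, minus strand) had a less accessible peak in intron 1, at chr1:164933789-164934189, with authors' means of 7.06 in WT and 6.36 in UTX TCD cells. Of its intergenic peaks, chr1:164955905-164956305 differed by -0.45 and chr1:164960073-164960473 by 0.33. Accessibility near the member whose transcript fell most among the tested members was thus not of 1 direction. *Lta* (chr17:35203165-35205351, minus strand) likewise had 1 higher peak, chr17:35210146-35210546 at 0.36, and 1 lower peak, chr17:35218576-35218976 at -0.49, both intergenic. The *Ccl3* peak, at chr11:83640179-83640579, was intergenic, with means of 10.98 in WT and 11.45 in UTX TCD cells. *Il2*, which was barely transcribed, had a more accessible promoter peak at chr3:37125661-37126061, from 6.11 to 6.67, and a more accessible intergenic peak at chr3:37152373-37152773, which differed by 0.62. The *Il16* peak at chr7:83645698-83646098, annotated to an exon, went from 8.54 to 9.43, although its transcript did not pass the test. Within 50 kb of a member's start, whatever gene name the peak had, 26 peaks were listed, 11 higher and 15 lower. Around *Tnf*, *Lta* and *Ltb* each, 2 of 7 such peaks were higher and 5 lower, most of them the same peaks, and *Ccl5* had none.

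Promoter and peak sequences are shown for *Ifng*, *Il2* and *Xcl1*, where a listed peak overlapped the promoter (the whole *Ifng* promoter and a part of the *Il2* promoter) or had the lowest difference of the gene. They were read from RefSeq GRCm38.p6, which is of C57BL/6J and not of NOD mice. All 10 members had a RefSeq position, but the promoter sequences used here covered 8 of them and not *Ccl4* and *Ccl5*. Promoters run from 250 bases before to 50 bases after the start. Capitals mark matches, on either strand, to motifs bound by T cell factors, namely AP-1 (TGANTCA), NFAT (GGAAA), T-box (GGTGTGA), STAT (TTCNNNGAA), TCF/LEF (CTTTGA), RUNX (TGTGGT) and NF-kB (GGGNNTTCC). The *Ifng* promoter (chr10:118440796-118441095, plus strand) held 1 NFAT match and 1 STAT match, and the *Il2* promoter (chr3:37125905-37126204, minus strand) 2 NFAT matches, of which 1 lay within the listed peak, and 1 TCF/LEF match. Of all 32851 RefSeq promoters, 61.3% held the NFAT letters, 8.3% STAT, 16.0% TCF/LEF, 16.8% RUNX, 7.81% AP-1, 3.98% T-box and 5.82% NF-kB.
*Ifng* promoter: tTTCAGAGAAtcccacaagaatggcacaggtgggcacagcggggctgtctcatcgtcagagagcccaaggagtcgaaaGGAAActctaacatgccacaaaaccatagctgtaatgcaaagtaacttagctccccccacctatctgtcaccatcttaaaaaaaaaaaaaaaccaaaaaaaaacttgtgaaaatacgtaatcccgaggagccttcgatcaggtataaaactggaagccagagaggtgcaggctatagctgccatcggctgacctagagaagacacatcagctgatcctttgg
*Il2* promoter: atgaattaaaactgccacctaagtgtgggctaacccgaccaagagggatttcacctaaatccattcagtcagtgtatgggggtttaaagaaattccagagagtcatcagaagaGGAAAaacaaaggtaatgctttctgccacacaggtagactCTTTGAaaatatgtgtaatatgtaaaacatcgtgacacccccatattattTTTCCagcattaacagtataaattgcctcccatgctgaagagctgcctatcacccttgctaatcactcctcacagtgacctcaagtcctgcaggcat

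The middle 201 bases of the *Ifng* peak with the largest loss (chr10:118404542-118404742, plus strand) and of the *Xcl1* intron 1 peak (chr1:164933889-164934089, minus strand) each held 1 RUNX match and no other.
*Ifng* upstream peak: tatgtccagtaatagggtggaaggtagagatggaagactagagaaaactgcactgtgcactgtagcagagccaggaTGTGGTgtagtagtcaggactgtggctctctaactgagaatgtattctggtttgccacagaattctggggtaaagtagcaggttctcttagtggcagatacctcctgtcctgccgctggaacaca
*Xcl1* intron peak: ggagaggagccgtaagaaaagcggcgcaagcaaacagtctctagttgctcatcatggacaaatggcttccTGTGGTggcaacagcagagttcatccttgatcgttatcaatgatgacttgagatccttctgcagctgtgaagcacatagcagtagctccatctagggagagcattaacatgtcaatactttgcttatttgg
Over whole peaks of 401 bases, 10 of the 18 member peaks held RUNX letters, 16 NFAT, 9 TCF/LEF, 4 AP-1, 2 STAT, 2 T-box and 1 NF-kB. Of the 23907 listed peaks of that length on assembled chromosomes, 39.7% held RUNX, 73.0% NFAT, 30.6% TCF/LEF, 12.8% AP-1, 11.9% STAT, 7.09% T-box and 6.99% NF-kB letters. RUNX letters were in 6 of the 9 *Ifng* peaks, 8 of which were lower, and in 48.8% of the lower and 35.5% of the higher listed peaks. A match describes letters only.

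Several members share AU-rich sequence in the 3′ untranslated region, where RNA-binding proteins that control cytokine mRNA decay bind. In the longest annotated region of each gene, *Tnf* had 8 ATTTA pentamers, *Il2* 7, *Ifng* 6, *Ccl3* 5, *Lta* 3, *Ccl4* 2 and *Xcl1* 1, whereas *Ltb*, *Ccl5* and *Il16* had none. Overlapping pentamers, ATTTATTTA, were in 3 of the 10 members, *Tnf*, *Lta* and *Il2*, and in 6.13% of 20979 genes. The densest 30 bases of the *Tnf* and *Il2* regions are shown with pentamers in capitals, at chr17:35199679-35199708 and chr3:37121040-37121069, both on the minus strand.
*Tnf* site: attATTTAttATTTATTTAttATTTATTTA
*Il2* site: ctATTTATTTAaatATTTAactttaATTTA
Of the called members, *Lta*, *Ccl3* and *Xcl1* held the pentamer, at 5.25, 12.2 and 7.09 per kb, and *Ccl5* did not. Over genes with a region of at least 100 bases the median was 1.35 pentamers per kb, so holding 1 was common.

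Of 14 genes for receptors of the members, 12 were tested, 1 was called higher and 4 lower, with a median log2 fold change of -0.13. Over all genes tested 10.5% were called higher and 7.05% lower. *Ifngr1* and *Ifngr2*, the IFN-γ receptor chains, fell. *Ifngr1* had 18521, 21610.4 and 19169 normalized counts in the WT libraries and 9416, 9684 and 11133 in the UTX TCD libraries, a log2 fold change of -0.97 (SE 0.08, limma adjusted p = 2.14e-05), and the genotypes did not overlap. *Ifngr2* had a log2 fold change of -0.53 (SE 0.06, limma adjusted p = 0.000232), and its call was lost when libraries were scaled to the same sum, at -0.46, at a fold limit of 1.5, without WT replicate 3, at -0.49, and without UTX TCD replicate 3, at -0.47. *Tnfrsf1b*, which encodes TNF receptor 2, fell, with a mean of 10832 ± 36.6 in WT against 4411 ± 349 in UTX TCD cells (SD, n = 3 each) and -1.30 (SE 0.06, limma adjusted p = 8.43e-07) as its log2 fold change, whereas *Tnfrsf1a* had 0.01, *Ltbr* -0.34 and *Tnfrsf14* 0.04. Among IL-2 receptor chains, *Il2rb* rose, with a log2 fold change of 0.63 (SE 0.05, limma adjusted p = 3.65e-05), while *Il2rg* had -0.27 (SE 0.06, limma adjusted p = 0.0073), under the fold limit, and *Il2ra* 0.36. The value of *Il2ra* ranged from 0.15 without UTX TCD replicate 3 to 0.51 without UTX TCD replicate 2, and was 0.23 without WT replicate 3.

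Of the chemokine receptors, *Xcr1* had a log2 fold change of 0.11 (SE 0.15, limma adjusted p = 0.608), and *Ccr1* and *Ccr3* were too low to test. *Cd4*, the IL-16 receptor, was called lower at -0.74 (SE 0.24, limma adjusted p = 0.0384) on at most 104 normalized counts. That call was lost under 8 of its 17 alternatives, over all of which the adjusted p ran from 0.032 to 0.101. The 8 were no filter, at -0.74 (adjusted p = 0.0673), scaling to the same sum, at -0.67 (adjusted p = 0.0543), DESeq2, at -0.73 (DESeq2 adjusted p = 0.0573), and leaving out any library but UTX TCD replicate 2, at -0.75, -0.65 and -0.81 without WT replicates 1, 2 and 3, and -0.78 and -0.54 without UTX TCD replicates 1 and 3.

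Other cytokine genes gave a background for the members. Of 55, 22 were tested, 6 called higher and 1 lower, with a median of 0.30, and 9 were at 0 in every library. The shares over all genes tested were 10.5% higher and 7.05% lower. *Tnfsf4*, which encodes OX40 ligand, rose, with a mean of 89.3 ± 19.3 in WT against 672 ± 130.5 in UTX TCD cells (SD, n = 3 each) and 2.90 (SE 0.20, limma adjusted p = 9.06e-06) as its log2 fold change. *Lif*, an IL-6 family cytokine, had 2.39 (SE 0.40, limma adjusted p = 0.0014), and *Cxcl10*, an IFN-induced chemokine, 1.80 (SE 0.26, limma adjusted p = 0.000669). *Tgfb3* fell, with -2.75 (SE 0.22, limma adjusted p = 2.35e-05). Of 30 genes for transcription factors acting at cytokine genes, 29 were tested, 5 called higher and 2 lower, beside the same shares of all genes tested, with a median of 0.15. The largest increases were *Bhlhe40* at 1.44 (SE 0.33, limma adjusted p = 0.00778), *Tbx21*, which encodes the *Ifng* activator T-bet, at 1.16 (SE 0.16, limma adjusted p = 0.00057), and *Jun* at 0.86 (SE 0.09, limma adjusted p = 0.000105), with *Eomes* and *Irf4* also called higher. *Irf4* was not called with DESeq2 (DESeq2 adjusted p = 0.0658), and the number of called genes on this list, 7, ranged from 5 without UTX TCD replicate 3 to 8 without WT replicate 2 and with the same sum per library, other than with no fold limit. The AP-1 genes *Fosl2* and *Fos* had -2.45 (SE 0.12, limma adjusted p = 1.87e-06) and -0.59 (SE 0.09, limma adjusted p = 0.000914).

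Of 14 genes for cytokine mRNA decay, all tested, none was called higher and 2 lower, with a median of 0.07. Over all genes tested 10.5% were called higher and 7.05% lower. *Arid5a*, which stabilizes cytokine mRNAs, had -0.65 (SE 0.07, limma adjusted p = 0.00013). *Zfp36l2*, a protein of the tristetraprolin family that binds AU-rich sequence, had -0.60 (SE 0.14, limma adjusted p = 0.00748), and -0.49 without UTX TCD replicate 3, which ended the call. Of 20 genes that respond to the members, 19 were tested, with a median of 0.24. Beside 10.5% higher and 7.05% lower over all genes tested, 4 of these were called higher and none lower. *Cxcl10* led them, followed by *Cish*, induced by IL-2 through STAT5, at 1.64 (SE 0.09, limma adjusted p = 3.92e-06) and *Bcl2*, a survival gene, at 1.28 (SE 0.08, limma adjusted p = 6.75e-06), and *Socs1* was the other. Of 11 genes for cytokine processing and secretion, all tested with limma, edgeR and DESeq2, 0 were called with each of the 3 tests, although 4 had a limma p under 0.05, both unadjusted and adjusted, and were under the fold limit. With limma 17.6% of all genes tested were called, and 40.7% had an adjusted p under 0.05.

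**Figure D3:**
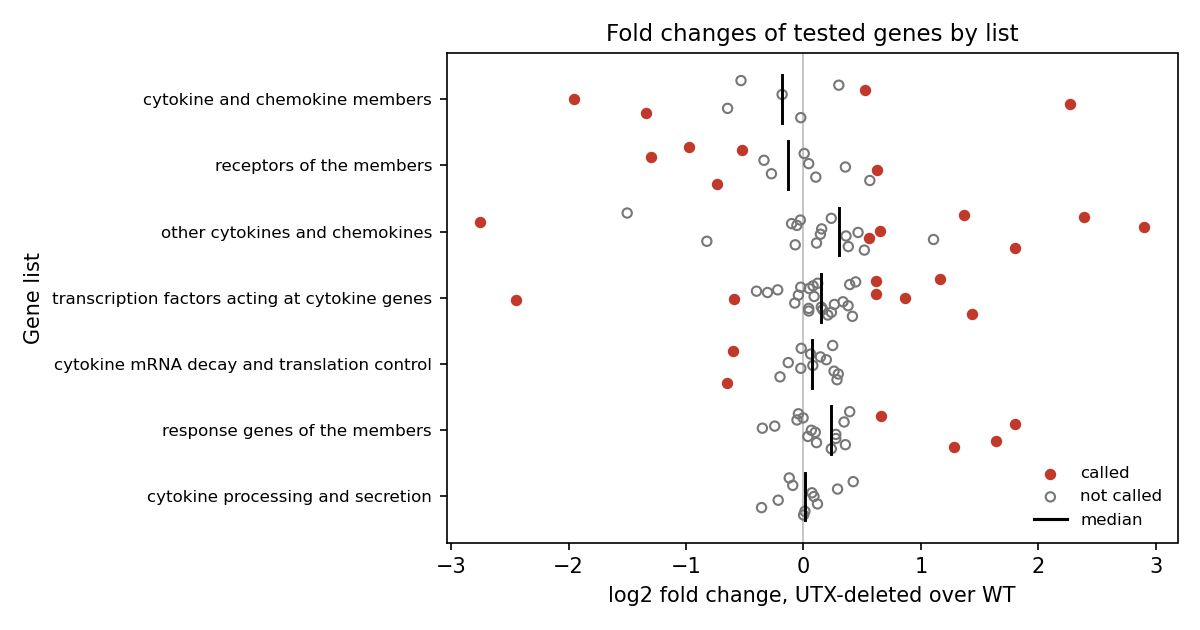
Log2 fold change (UTX-deleted over WT) of each tested gene by list, with called genes filled, others open and the median as a black line. The members span -1.95 to 2.27, and no gene for cytokine processing and secretion was called, beside 17.6% of all genes tested.

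The genes outside the lists whose pattern over the 6 libraries was most like a called member were named by Pearson's r of log2(normalized count + 1), as a description. For *Xcl1* they were *Xdh* at r = 0.999 and *Zfp51* at 0.998. *Xdh* had 5990.1, 8756 and 5904 normalized counts in WT and 1462, 1477 and 2814 in UTX TCD libraries, highest in WT replicate 2 and, among UTX TCD, in replicate 3, as *Xcl1* was. For *Ccl5* they were *Sv2c* at r = 0.997 and *Shisa8* at 0.993. For *Lta* they were *Rsph10b* at r = 0.998 and *Clcn2* at 0.997, and for *Ccl3* *Dolpp1* at r = 0.998 and *Trim30c* at 0.997. With 14459 genes and 6 libraries, values this high were selected as the highest.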

How the data were processed

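For RNA-seq the authors aligned reads to mm10 with HISAT2 2.2.1, counted them per gene with featureCounts and deposited counts divided by DESeq2 size factors, a normalized signal for each of 6 libraries. Libraries were grouped by genotype and replicate number from the labels. Each library's value of 1 read was found from its low values, and 100% of values were whole multiples of it within a tolerance of 0.05. The main test was limma 3.58.1 in R 4.3.3 (lmFit, eBayes with trend) with genotype as the only term. Count tests on the recovered reads called 2541 genes with edgeR 4.0.16 and 2422 with DESeq2 1.42.0. The fit was tested on simulated data first. It recovered 65 of 87 genes (74.7%) simulated at a log2 change of 1 and 103 of 113 (91.2%) at 2, with 4 false calls. A gene not called can therefore still have changed.

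For ATAC-seq the authors used Cutadapt, Bowtie2, SAMtools, Picard, MACS2, DiffBind and HOMER and deposited log2 mean concentrations per genotype, which were used as the authors' means. A transposase shift is not stated for these data. The authors also deposited their own fold changes, p-values and false discovery rates for genes and peaks, and these were not used as results. Peak sequences came from RefSeq GRCm38.p6, the build of mm10, and exon lengths and 3′ untranslated regions from GENCODE annotation. All 10 members had a gene position.

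Named genes were, by rule, every member and receptor, the 3 called higher and 3 called lower genes of each other list with the largest change, *Kdm6a*, *Uty*, the sort markers and, for each called member, the 2 tested genes with the most similar pattern. Some genes of these lists are not reported here. Marker genes singled out by value and the remaining called transcription factor and response genes were chosen after their values were seen. The members and lists were chosen with earlier results of these data known. Alternatives covered the pseudocount, filter, scaling, test, replicate block, fold limit, peak limits and each library left out. Reads without molecular identifiers are not independent molecules, so the intervals of pooled read ratios hold for counting error alone.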

Additional observations from a re-analysis of the deposited data

How the results depend on the processing

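For results that count genes, lists or peaks, 180 of 207 values under the alternatives stayed within 1.5 times the reported value. For single genes, 657 of 692 kept their direction and their side of the threshold, 22 were no longer called, 5 became called and 8 changed sign. With no limit on the fold change, 5887 genes were called, 2924 higher and 2963 lower, and the called genes were 18 of the transcription factors, 8 of the mRNA decay genes, 10 of the response genes and 4 of the secretion genes, as this limit alone was removed. Members called higher were 1 with a filter at 50, where *Ccl3* was not tested, and 1 at a fold limit of 1.5. Members called lower were 1 with edgeR and 1 with DESeq2, and the cause was not tested. Receptors called were 3 when libraries were scaled to the same sum, which shifted the median of all genes by 0.06, and other cytokines called were 11 with no filter, since more genes were tested. Member peaks that were more accessible numbered 4 of 13 at an absolute difference over 0.5, 0 of 4 over 1, and 11 of 26 within 50 kb. All 4 peaks over 1 were assigned to *Ifng*, and shares of all listed peaks at these limits are not given here. *Il16* changed sign to 0.0393 with the same sum.

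Leaving out 1 library at a time gave 2 to 4 members called, 1 to 2 higher and 1 to 2 lower, 3 to 5 receptors and 1 to 2 mRNA decay genes. The log2 fold change ranged from -0.0844 to 0.0344 for *Il16*, from -0.0881 to 0.0568 for *Tnfrsf1a*, from -0.66 to 0.20 for *Ltbr* and from -0.0284 to 0.11 for *Tnfrsf14*, none of which passed the test. The cause was not tested. With the replicate number as a block, 4 members and 2474 genes were called, and no member's call changed. Deviations of same-numbered libraries correlated at 0.305, -0.2 and 0.09, so the numbers were not taken to pair the samples, and not every library correlated best with its own number. Low read numbers limited *Il2* and *Ccl3*, and the ATAC-seq means allowed no replicate error.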
